A study of Mus musculus with 5 samples.

Results

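The genes described here are 7 keratins of the upper layers of stratified and wounded epithelium, Krt1, Krt10, Krt4, Krt13, Krt6a, Krt6b and Krt16, in tumour cells of the mouse prostate. Every probe set (a group of array probes read as 1 value) whose single gene symbol in the platform annotation is one of these was taken, which gave 12 of 45037 probe sets: 3 each for Krt13 and Krt6a, 2 for Krt4 and 1 for each of the others. The 7 genes were chosen by their measured levels on these same arrays, since several of them led the variation between the mice. Their levels by mouse are therefore a description without a test, and only the comparison of genotypes is tested. That test is not free of the choice, since wide variation between mice of the same genotype makes a small p less likely.

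The study compared C57BL/6 mice of 2 genotypes whose prostate tumours were dissociated on ice and purified for epithelial cells with EpCAM beads, 1 mouse per Affymetrix array. The 3 nDKO mice bear Probasin, a promoter active in prostate epithelium, and floxed alleles, among them Smad4, which relays TGF-beta and BMP signals. The 2 nTKO mice have floxed Pygo2 as well, a co-activator of Wnt signalling. Ages were 15.86 weeks for nDKO 1, 10.71 weeks for nDKO 2 and nDKO 3, 31.43 weeks for nTKO 1 and 16 weeks for nTKO 2. All 5 mice share the floxed Smad4, and no mouse with intact alleles is analysed here. Values are log2 signals, on which a difference of 1 is a 2-fold change, and array medians lay between 4.94 and 4.98. Signal of the epithelial marker Epcam was 12.94 to 13.48 on all 5 arrays. Pygo2 read 8.62 to 8.72 in the nDKO mice, 7.30 in nTKO 1 and 6.35 in nTKO 2, a difference of -1.84 (SE 0.31) with a limma adjusted p of 0.799. Smad4 read 9.63 to 10.37 on all 5 arrays, and whether its probes fall inside the deleted exons is not given in the sources used here.

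Keratins are the intermediate filament proteins of epithelial cells, and each filament pairs a type I with a type II keratin. Krt1 (type II) and Krt10 (type I) are the pair that keratinocytes make when they leave the basal layer of cornifying epithelium such as epidermis. Krt4 (type II) and Krt13 (type I) hold the same place in moist, non-cornifying linings such as the oesophagus. Krt6a and Krt6b (type II) with Krt16 (type I) are induced in wounded, inflamed or fast-growing epithelium and are known as stress keratins. Normal prostate glands are built from luminal cells with Krt8 and Krt18 over basal cells with Krt5 and Krt14, and a tumour with the cornifying pair is described as squamous.

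The arrays of nDKO 1 and nTKO 1 carried the highest signal of all 7 keratins, and they belong to different genotypes. On all 12 probe sets both of these arrays were above the other 3, an arrangement found for 11% of all probe sets on the array; the members were chosen for this pattern, so nothing is read from the count. The signal of nDKO 1 was the highest on 11 of the 12 probe sets. The range over the 5 arrays was at least 2 log2 units for 8 of the 12, against 1.05% of all probe sets. Its median was 3.09 for the 12 and 0.30 for all probe sets. The genes were chosen since several led the variation between the mice, so nothing is read from this contrast with all probe sets. The 7 genes fell into a group with very large ranges (Krt13, Krt10, Krt1 and Krt6b) and a group with small ones (Krt16, Krt6a and Krt4).

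**Figure D1:**
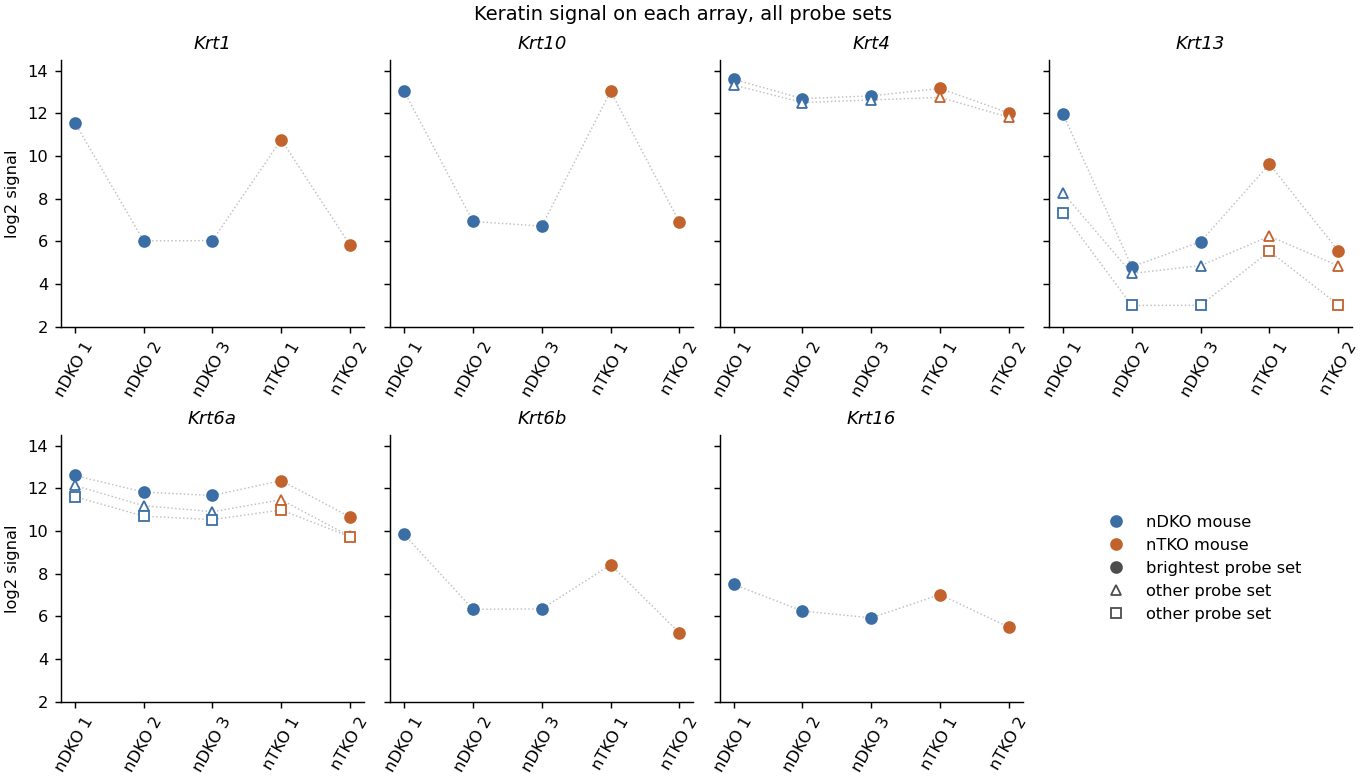
Log2 signal of each keratin on each array, with nDKO mice in blue and nTKO mice in orange; filled circles are the brightest probe set of the gene and open symbols its other probe sets. Each panel is highest in nDKO 1 and nTKO 1, with Krt10 at 13.03 and 13.04 there and at 6.71 to 6.93 on the other 3 arrays, while Krt4 stays between 11.82 and 13.60 on all 5.

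The cornifying pair was the most sharply divided. Krt10 measured 13.03, 6.93 and 6.71 in nDKO 1, 2 and 3, and 13.04 and 6.90 in nTKO 1 and 2. The high mice of the 2 genotypes thus differed by 0.01, and the 3 others lay within 0.22 of each other. Within a genotype the signal was 68.6 and 79.9 times higher in nDKO 1 than in nDKO 2 and nDKO 3, and 70.5 times higher in nTKO 1 than in nTKO 2. Its partner Krt1 measured 11.57, 6.02 and 6.03 across nDKO 1 to 3 against 10.77 and 5.82 for nTKO 1 and 2. Here too the 3 low mice lay close together, between 5.82 and 6.03, and nDKO 1 was 1.74 times above nTKO 1. Within the genotypes, Krt1 was 46.9 and 46.5 times higher in nDKO 1 than in nDKO 2 and nDKO 3 and 30.9 times higher in nTKO 1 than in nTKO 2. Each of these genes has 1 probe set. In RNA taken from all bead-purified cells of a tumour together, a larger share of cells that make a keratin and more of its RNA per cell cannot be told apart.

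The mucosal pair was unequal in range, although both genes were highest in nDKO 1 and nTKO 1. Krt13, its type I member, measured 11.97, 4.80 and 5.98 across nDKO 1 to 3 against 9.62 and 5.55 for nTKO 1 and 2 by its brightest probe set. It had the largest range of the 7 genes (7.17), and unlike Krt10 it was clearly unequal in the 2 high mice, with nDKO 1 above nTKO 1 by 2.35 log2 units. The other Krt13 probe sets gave the same order of the high mice, at 8.27 and 7.34 in nDKO 1 and 6.24 and 5.53 in nTKO 1. On the 3 remaining arrays they read 4.49 to 4.86 and 2.99 to 3.02, the latter near the low end of the array (1.95 to 2.01), so that the distances there may be understated. Krt4, the type II partner, was bright in every mouse, with 13.60, 12.69 and 12.82 across nDKO 1 to 3 against 13.17 and 12.02 for nTKO 1 and 2. Its range was 1.58 (1.51 by the second probe set), and the signal of nDKO 1 was 1.88 and 1.72 times that of nDKO 2 and nDKO 3. The highest value on any array was 14.08, so Krt4 lies close to the top of the scale, and whether this narrows its range was not tested.

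Sequences upstream of the transcription start are shown for Krt10 and Krt13, the members with the largest ranges, and for Krt12, the gene next to Krt10 among the keratins of chromosome 11, which followed the same mice. They are the 250 bases before the start, on the minus strand of GRCm38.p6 and from RefSeq, whose promoter table holds 2 of the 7 members (Krt10 and Krt13). Krt10 lies at chr11:99389365-99389614, Krt12 at chr11:99422260-99422509 and Krt13, at the outer of its 2 starts, at chr11:100121567-100121816. Capitals mark 2 motifs searched on both strands, the TATA box TATAAA and TGANTCA, a loose form of the AP-1 site with any base allowed at its centre.
Krt10: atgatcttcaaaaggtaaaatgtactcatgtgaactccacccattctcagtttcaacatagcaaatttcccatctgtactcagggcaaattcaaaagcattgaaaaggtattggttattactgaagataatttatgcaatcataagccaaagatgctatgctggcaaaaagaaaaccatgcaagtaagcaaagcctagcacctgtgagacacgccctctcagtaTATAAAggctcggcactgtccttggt
Krt12: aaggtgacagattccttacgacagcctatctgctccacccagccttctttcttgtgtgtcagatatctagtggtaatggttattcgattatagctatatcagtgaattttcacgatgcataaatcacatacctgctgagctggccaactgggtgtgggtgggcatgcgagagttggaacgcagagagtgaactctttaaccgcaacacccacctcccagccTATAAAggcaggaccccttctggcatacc
Krt13: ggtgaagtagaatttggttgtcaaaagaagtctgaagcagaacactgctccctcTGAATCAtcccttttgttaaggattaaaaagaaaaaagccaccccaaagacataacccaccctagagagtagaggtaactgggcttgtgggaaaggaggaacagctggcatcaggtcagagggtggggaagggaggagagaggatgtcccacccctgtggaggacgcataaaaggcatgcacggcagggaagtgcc
TATAAA begins 26 bases before the start in Krt10 and 29 before it in Krt12, and 12.4% of all 32851 promoter windows of this length hold it. TGANTCA begins 196 bases before the start in Krt13, and 6.75% of all windows hold it. These are letter matches only.

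Among the stress keratins, Krt6b varied most. Krt6b measured 9.84, 6.33 and 6.35 across nDKO 1 to 3 against 8.42 and 5.22 for nTKO 1 and 2. It was 11.4 and 11.2 times higher in nDKO 1 than in nDKO 2 and nDKO 3, and 9.19 times higher in nTKO 1 than in nTKO 2. Its close relative Krt6a was bright in all mice and varied far less, at 12.61, 11.83 and 11.67 across nDKO 1 to 3 against 12.37 and 10.66 for nTKO 1 and 2 by the brightest probe set. The other Krt6a probe sets had ranges of 2.39 and 1.89 against 1.95, with the same mice at the top and the bottom. Krt6a and Krt6b are near-identical in sequence, and the ending "_x_at" marks probe sets that can bind other genes, so how the signal divides between these genes is uncertain. That ending is carried by 1 Krt6a probe set, by the brightest Krt4 probe set and by both dimmer Krt13 probe sets. The type I partner Krt16 measured 7.50, 6.25 and 5.93 across nDKO 1 to 3 against 7.02 and 5.49 for nTKO 1 and 2, a range of 2.01.

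For the stress keratins, Krt4 and Krt1, but not for Krt10 and Krt13, the lowest array was nTKO 2. Krt6a was lower in nTKO 2 than in nDKO 2 and nDKO 3 by 1.17 and 1.01 log2 units, Krt6b by 1.11 and 1.13, Krt16 by 0.76 and 0.44, and Krt4 by 0.67 and 0.80. For Krt1 the same distances were 0.20 and 0.21. Krt10 lay at 6.90 in nTKO 2, between nDKO 2 (6.93) and nDKO 3 (6.71), and Krt13 at 5.55 lay between 4.80 and 5.98. On 8 of the 12 probe sets nTKO 2 was the lowest of the 5 arrays, against 16.1% of all probe sets, and on the same number it was below both nDKO 2 and nDKO 3, against 28.1% of all. This rests on 1 mouse, and the members were chosen on these arrays, so no test was made.

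**Figure D2:**
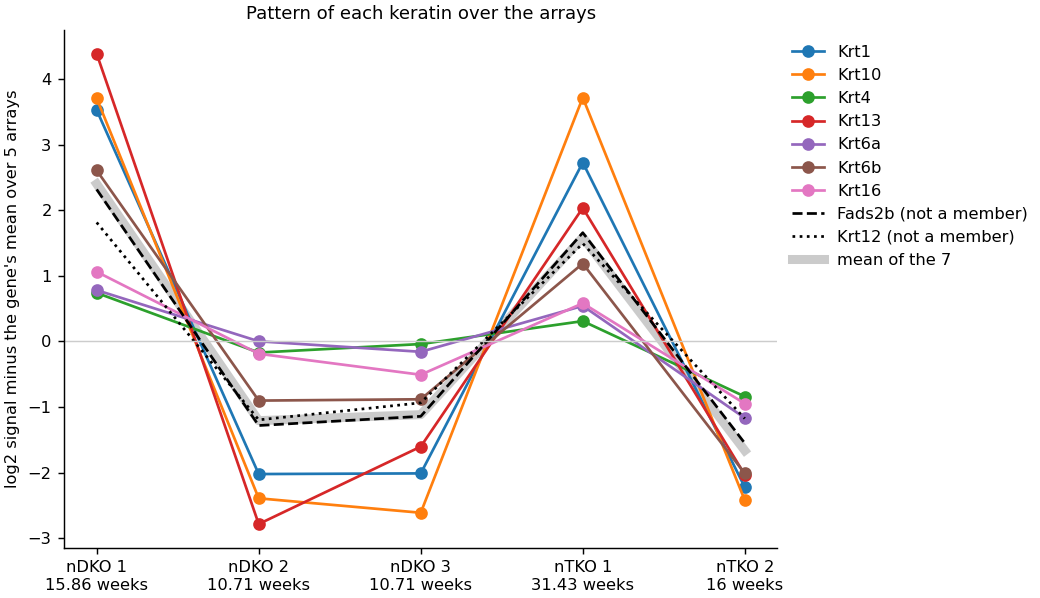
Log2 signal of each keratin (brightest probe set) minus its own mean over the 5 arrays, with the age of each mouse below it; the grey band is the mean of the 7 keratins, and the black lines are Fads2b and Krt12, which are not among the 7. The mean pattern is 2.40 in nDKO 1 and 1.59 in nTKO 1, and -1.21, -1.12 and -1.66 in nDKO 2, nDKO 3 and nTKO 2.

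Ages and signals are set side by side here without a test. The high mice were the oldest of their genotypes, at 15.86 weeks (nDKO 1) and 31.43 weeks (nTKO 1). At 16 weeks, nTKO 2 had lower signal than nDKO 1 on all 12 probe sets. The members were chosen for high signal in nDKO 1 and nTKO 1, so this order follows from the choice and nothing is read from it. Krt10 was 13.03 in nDKO 1 and 6.90 in nTKO 2, Krt1 was 11.57 and 5.82, and Krt13 was 11.97 and 5.55. With 5 mice, age, genotype and differences between single mice cannot be told apart.

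The comparison of genotypes asks whether the loss of Pygo2 changes these transcripts. No keratin passed the test. The limma fit across all 45037 probe sets called 0 probe sets at an adjusted p under 0.05 (0% of all), and 0 of the 12 keratin probe sets. At an unadjusted p under 0.05 there were 1710 probe sets, which is 3.8% of all, and 0 of the 12. The choice of members bears on this count, since a high mouse in each genotype widens the spread within both. The groups overlapped for all 12 keratin probe sets, where 12.2% of all probe sets had groups that do not overlap. The members were chosen for high signal in both nDKO 1 and nTKO 1. With these arrays above all others the genotypes must overlap, so nothing is read from the overlap. The keratin means were lower in nTKO cells on 9 of the 12 probe sets, against 42.8% of all, with a median difference of -0.39 (0.017 over all probe sets). With 1 probe set per gene, 4 of the 7 keratins were lower. The count was 12 of 12 without nTKO 1 (median -1.40), 1 of 12 without nTKO 2 (median 0.41) and 5 of 12 without nDKO 1 (median 0.32).

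For the cornifying pair the nTKO means were the higher ones, within very wide error. Krt10 had a mean of 8.89 (SD 3.59, n = 3) in nDKO and 9.97 (SD 4.34, n = 2) in nTKO cells, a difference of 1.08 (SE 2.98, 95% interval -7.05 to 9.21). Krt1 differed by 0.42 (SE 2.55, interval -6.55 to 7.39), and Krt13 by 0.0017 (SE 2.75). The limma adjusted p was 0.940 for Krt10, 0.981 for Krt1 and 1 for Krt13. Both genotypes hold a mouse with high and a mouse with low signal, and the intervals span large changes of either sign.

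For Krt4 and the stress keratins the nTKO means were the lower ones, and the error was smallest for Krt4 and largest for Krt6b. Krt4 had a mean of 13.04 (SD 0.49, n = 3) in nDKO and 12.60 (SD 0.81, n = 2) in nTKO cells, a difference of -0.44 (SE 0.48, interval -1.75 to 0.87), and -0.54 by its second probe set. Krt6a differed by -0.52 (SE 0.63, interval -2.23 to 1.19), and by -0.80 and -0.59 with its other probe sets. Krt6b differed by -0.69 (SE 1.63) and Krt16 by -0.31 (SE 0.71). The limma adjusted p was 0.838 for Krt4, 0.844 for Krt6a, 0.925 for Krt6b and 0.924 for Krt16.

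**Figure D3:**
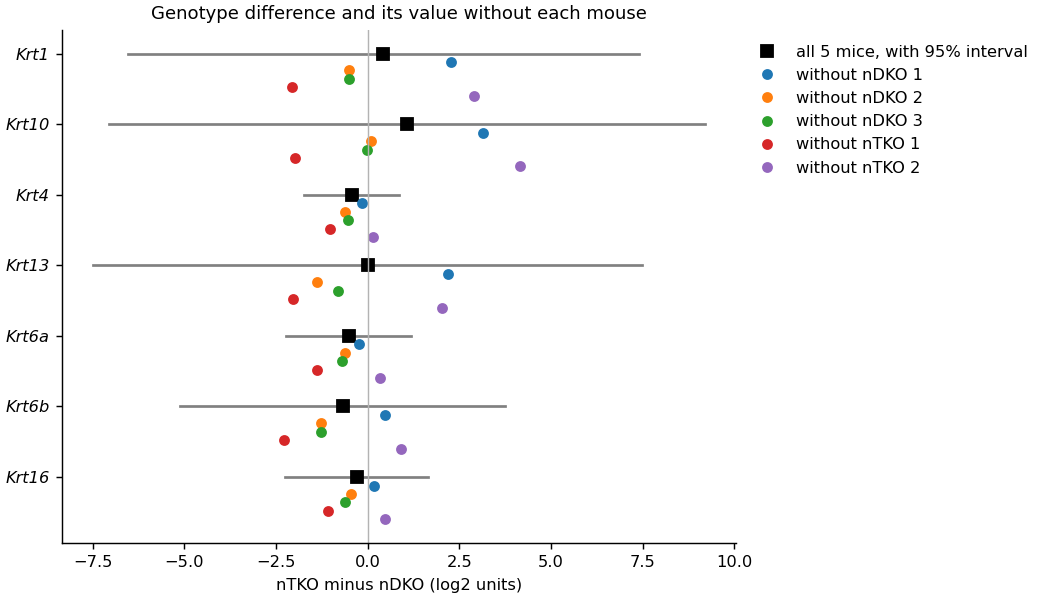
Difference of the genotype means (nTKO minus nDKO, log2 units) for the brightest probe set of each keratin: black squares with bars are the estimates from all 5 mice with their 95% intervals, and coloured points the values with 1 mouse left out. All 7 intervals hold 0, and leaving out nTKO 1 or nTKO 2 puts each keratin on opposite sides of 0.

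The sign depended on which mice were compared and on whether age entered the model. With log2 age as a term the difference was -5.72 for Krt10, -5.32 for Krt1 and -5.69 for Krt13, and all 12 probe sets were lower in nTKO cells. The high mice are the oldest of their genotypes, so this term takes up the pattern for which the members were chosen. Without nTKO 1 the difference was -1.99 for Krt10, -2.05 for Krt1, -2.03 for Krt13, -1.38 for Krt6a and -1.02 for Krt4. Without nTKO 2 it was 4.15, 2.90, 2.04, 0.33 and 0.13 for the same genes. Without nDKO 1 it was 3.15 for Krt10, 2.27 for Krt1 and 2.20 for Krt13. With both nDKO 1 and nTKO 1 left out, which sets nTKO 2 against nDKO 2 and nDKO 3, Krt10 differed by 0.08 and Krt13 by 0.16. In that setting Krt6b differed by -1.12, Krt6a by -1.09, Krt4 by -0.74, Krt16 by -0.60 and Krt1 by -0.21. The limma adjusted p in that setting was 0.142 or more for all of these, with the spread taken from the 2 nDKO mice alone.

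Of the other keratins, 41 genes were measured, and most were steady. Their median range over the 5 arrays was 0.27, and 29 of the 41 had a range under 0.5. A range of at least 2 was found for 5 of them, Krt79, Krt12, Krt14, Krt5 and Krt17. In 7 of the 41 both nDKO 1 and nTKO 1 were above the other 3 arrays, and 0 passed the limma test of genotype. The basal keratins Krt5 and Krt14 followed the same mice. Their ranges (2.58 and 2.93) were smaller than those of Krt13, Krt10, Krt1 and Krt6b and larger than those of Krt16, Krt6a and Krt4. Krt5 measured 13.10, 10.87 and 10.81 across nDKO 1 to 3 against 12.35 and 10.52 for nTKO 1 and 2. The other basal genes did not all follow these mice, and Col17a1 was lowest in nTKO 1, at 6.24 against 7.73 to 8.91 elsewhere. Krt17, a basal and stress-linked keratin, was higher in nTKO 1 (9.63) than in nDKO 1 (9.0). The luminal keratins went the other way by small amounts: Krt8 measured 12.96 and 13.12 in nDKO 1 and nTKO 1 and 13.32 to 13.55 on the other 3 arrays, and Krt18 measured 12.59 and 12.77 against 12.85 to 13.04. Of the 12 measured genes of the luminal list, 8 were lower in both nDKO 1 and nTKO 1 than on the other 3 arrays (Krt8, Krt18, Krt19, Foxa1, Epcam, Tmprss2, Hoxb13 and Fkbp5), against 9.91% of all genes. The androgen-responsive Fkbp5 read 9.76 and 9.86 in nDKO 1 and nTKO 1 and 10.44 to 11.07 elsewhere. The luminal genes with the largest ranges, Pbsn (4.82) and Psca (3.95), did not have this order. Pbsn read 3.91 and 3.81 in nDKO 1 and nTKO 1 and 3.33 to 8.15 elsewhere. Psca was highest in nDKO 1 (10.86), with 7.29 in nTKO 1 and 6.91 to 9.07 elsewhere. Krt8, Krt18 and Krt19 lie near the top of the scale, and whether this narrows their differences was not tested. Krt19 ran from 13.13 to 13.67, Krt15 from 12.77 to 13.68 and Krt7 from 11.19 to 12.39.

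Of the 12 keratin genes outside the 7 that lie next to them, 6 had nDKO 1 and nTKO 1 above the other 3 arrays (Krt12, Krt14, Krt17, Krt5, Krt77 and Krt79) and 6 did not, against 14.6% of all genes. Keratin genes lie in a cluster on chromosome 11 and another on chromosome 15, and neighbours are taken here among keratin genes in the order of GRCm38.p6. Next to Krt10, the corneal keratin Krt12 measured 6.31 and 5.99 in nDKO 1 and nTKO 1 and 3.30 to 3.56 elsewhere, while Krt28 on the other side had a range of 0.01. Krt77, next to Krt1, had a range of 0.60 and Krt2 a range of 0.16. Krt13 lies between Krt36 (range 0.25) and Krt15 (0.91), and Krt16 between Krt14 (2.93) and Krt17 (2.0). Krt6a and Krt6b lie side by side, with Krt5 (2.58) and Krt75 (0.05) around them. Krt4 lies between Krt76 (0.06) and Krt79, which was highest in nTKO 1, at 8.93, 8.37 and 7.63 across nDKO 1 to 3 against 10.02 and 5.67 for nTKO 1 and 2.

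**Figure D4:**
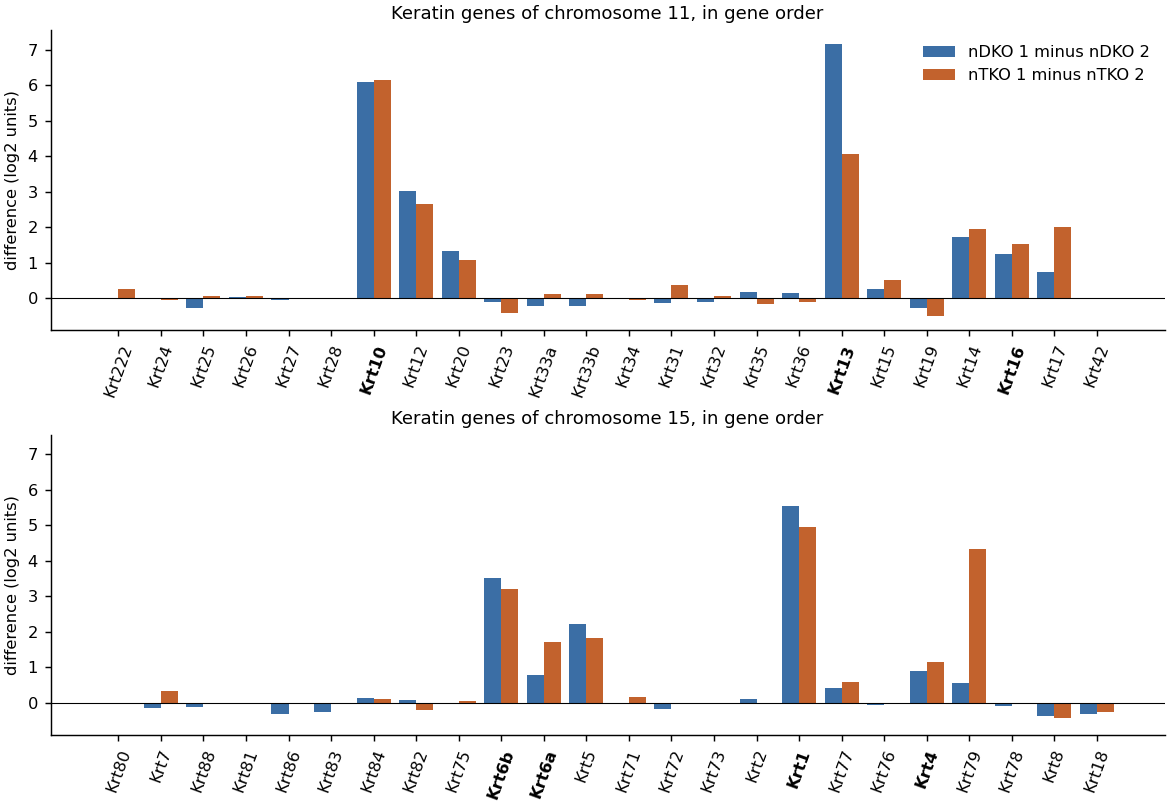
Difference in log2 signal between nDKO 1 and nDKO 2 (blue) and between nTKO 1 and nTKO 2 (orange) for every measured keratin gene of chromosomes 11 and 15 in gene order, evenly spaced, with the described keratins in bold. Krt10 (6.10 and 6.14) and Krt1 (5.55 and 4.95) stand far above flanking genes such as Krt28 and Krt2, and Krt79 differs mainly in the nTKO pair (0.56 and 4.35).

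Genes nearest in pattern were sought over the 5 arrays by the root mean square distance in log2 units between profiles centred on their own means. Nearest to the mean profile of the 7 keratins were Fads2b (0.078), H60c (0.26) and Pitx1 (0.27), a homeobox transcription factor. Slc14a1, a urea transporter, Fabp5, an epidermal fatty acid binding protein, Ivl, the cornified envelope precursor involucrin, Krt12, Aqp3, Ephx3 and Teddm3 followed, at 0.32 to 0.39. Fads2b measured 9.99, 6.39 and 6.53 across nDKO 1 to 3 against 9.33 and 6.12 for nTKO 1 and 2. Of the 7 keratins themselves, Krt6b was nearest to their mean (0.31) and Krt10 farthest (1.45).

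Taken singly, the keratins had different neighbours. Krt1 and Krt10 were 0.56 apart, and Krt1 was the nearest of all genes to Krt10. Outside the 7, Stfa3, Sox7 and Sptssb were the nearest to Krt1. Sptssb and Stfa3 were near Krt10 as well, with Krtdap, a keratinocyte differentiation protein. Krt13 was nearest to Ppbp and Sprr2f, a cornified envelope protein, at 0.49 each. Krt4 and Krt13, which can form a filament together, were 2.32 apart, and Krt4 was 0.20 from Krt6a and 0.29 from Krt16. The distance is not scaled, so it grows with the range, and Krt4 lies near the top of the scale. Nearest to Krt4 was Cdkn1a, a cell cycle inhibitor (0.097). Nearest to Krt6a were Smr2, Psapl1 and the desmosome protein Pkp1, and nearest to Krt16 were Scel, an envelope protein of keratinocytes, Mmp12 and Gjb6. Nearest to Krt6b was Ivl (0.21). All these distances rest on the same 5 arrays.

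Companions of suprabasal keratins in stratified epithelium had their highest signal on the same arrays in part. Of 26 measured companion genes, 14 had both nDKO 1 and nTKO 1 above the other 3 arrays, where 14.6% of 18193 genes had this order. Krtdap measured 9.83, 6.16 and 5.21 across nDKO 1 to 3 against 11.23 and 4.58 for nTKO 1 and 2. The calcium-binding Calml3 measured 11.34, 7.99 and 7.67 across nDKO 1 to 3 against 9.70 and 5.05 for nTKO 1 and 2, so that it was highest in nDKO 1 and Krtdap in nTKO 1. Involucrin followed Krt6b, at 10.13 and 8.67 in the high mice. By genotype 7 of the 26 were higher and 19 lower (median -0.19, against 0.028 over all genes), and limma called 0. The median was 0.12 without nDKO 1 and 0.16 without nTKO 2.

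Transcription factors and signals that drive stratified differentiation were divided. Of 32 measured regulators, 15 had nDKO 1 and nTKO 1 on top, an order found for 14.6% of all genes, and 17 did not. In 2 of the 32, Sox9 and Elf3, both mice were below the other 3 arrays; Sox9 read 7.57 in nDKO 1, 8.54 in nTKO 1 and 8.68 to 8.78 elsewhere. Pitx1 measured 8.83, 4.79 and 5.36 across nDKO 1 to 3 against 7.88 and 5.18 for nTKO 1 and 2. Grhl3, a factor of barrier formation, was at 6.91 and 6.96 in the 2 high mice and at 4.02 to 4.48 elsewhere. Trp63, the master factor of stratified epithelium, was at 9.49 and 8.64 against 6.86 to 7.25, and the Notch ligand Jag1 at 10.99 and 10.44 against 8.67 to 9.53. Differences were smaller for Notch1 (range 1.26), Ovol1 (0.99), Zfp750 (0.90) and Klf4 (0.65). By genotype 12 of the 32 were higher and 20 lower (median -0.12), and limma called 0. That median was -0.38 without nTKO 1 and 0.17 without nTKO 2.

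Genes linked to stressed keratinocytes were less uniform. Of 24 measured, 10 had both mice on top, against 14.6% of all genes. By genotype 15 of the 24 were higher and 9 lower (median 0.033, limma called 0). Without nTKO 1 they were 7 higher and 17 lower (median -0.24), and with log2 age as a term 6 and 18 (median -0.32). Ereg, an EGF-family ligand, read 6.35 in nDKO 1 and 3.81 to 4.27 on the other 4 arrays. The calgranulins S100a9 and S100a8, made by stressed keratinocytes and by neutrophils, were highest in nTKO 1 (12.94 and 12.79) and measured 7.93 to 10.53 elsewhere.

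Markers of other cells were mixed, and their counts are set beside the 14.6% of all genes with nDKO 1 and nTKO 1 on top. The macrophage and appendage counts lie close to that share. The neutrophil list (9 measured genes) had array medians of 6.23, 5.99 and 6.33 across nDKO 1 to 3 against 7.06 and 5.73 for nTKO 1 and 2, and 4 of the 9 (S100a8, S100a9, Mmp8 and Ltf) had nDKO 1 and nTKO 1 on top. S100a8 and S100a9 are also in the stress list. The seminal vesicle list (7 genes) had its lowest median in nDKO 1 (8.86), with 11.42 in nTKO 1 and 11.46 to 12.97 on the other 3 arrays. Svs3a, Svs6 and Sva were also low in nTKO 2, at 7.93, 8.06 and 6.19 against 11.42, 11.33 and 10.37 in nTKO 1. The 2 nTKO mice lay closer together for the other genes of this list. Both mice were on top for 4 of 13 genes of the basal list and 2 of 8 of the urothelial list (Grhl3 and Krt20). The same held for 1 of 10 of the macrophage list (Cd14) and 0 of 12 of the luminal list. Several genes of the basal list, among them Col17a1, were lowest in nTKO 1. Lists this small were not tested. The keratins of hair and skin appendages, which mark skin carried along at dissection, had array medians of 3.63 to 3.77, and 2 of the 11, Krt77 and Krt79, had the pattern. Medians of T cell, fibroblast, endothelial and smooth muscle markers lay between 3.30 and 4.80. Single genes lay above these medians, with the fibroblast marker Dcn at 6.41 in nTKO 1 and 7.87 to 9.52 elsewhere. The smooth muscle marker Acta2 read 7.34 to 8.09 and the fibroblast marker Postn 5.57 to 6.87, both highest in nDKO 1. The part of these cells in the keratin signal was not tested.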

How the data were processed

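Expression was measured on 5 arrays of 5 mice. Per the submitters' processing notes, RMA and the Transcriptome Analysis Console produced the deposited log2 values; their versions are not given in the sources here. As a method, RMA corrects background, equalises array distributions and combines the probes of a set, which compresses differences among dim values. Values are rounded to 2 decimals. Genotypes were tested in R 4.3.3 by limma 3.58.1 (lmFit, eBayes with an intensity trend, no covariate, no filter) on all 45037 probe sets, two-sided, with Benjamini-Hochberg adjustment over all of them and a threshold of 0.05. The fit had 3 residual degrees of freedom and 1.18 from the prior, and was tested on simulated data. An exact permutation test of a single value cannot go below 0.1 with 10 splits. For gene lists, likeness and other keratins, a gene was its brightest probe set with 1 symbol (18193 genes). Descriptions used Python 3.11.15 with pandas 2.3.3. The labels name separate mice, so the spread is between animals. The keratins, lists and alternatives were chosen with earlier results of these data known. Named genes were all member probe sets, the 10 nearest to the mean profile and 3 nearest to each keratin, keratins adjacent in the genome, basal and simple keratins, up to 4 genes per list by range, 6 regulators whatever their values, and Pygo2 and Smad4; Ltf, Cd14, Sox9, Elf3, Foxa1, Tmprss2 and Hoxb13 were named after their values were seen. A further floxed allele that the labels give for all 5 mice is not reported here.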

Additional observations from a re-analysis of the deposited data

How the results depend on the processing

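The limma test called 0 keratin probe sets and 0 probe sets of any kind in all alternatives run: quantile normalization, median centring, a filter at the median level (11 of the 12 kept), 1 probe set per gene, no trend, robust fitting, array weights, log2 age, the replicate block, each mouse left out, and both nDKO 1 and nTKO 1 left out. At an unadjusted p under 0.05, 9 of the 12 passed when log2 age entered the model (9.08% of all probe sets) and 5 under the replicate block (5.09%). The members were chosen for high signal in nDKO 1 and nTKO 1, the oldest of their genotypes and both replicate 1. Both terms therefore take up the chosen pattern, and nothing is read from these counts. Probe sets of the same gene are also not independent. Counts at this threshold are not given for the fits that leave 1 nTKO mouse, where the spread comes from the nDKO mice alone. Signs changed as follows. With log2 age the difference was -5.32 for Krt1, -5.72 for Krt10 and -5.69 for Krt13. For the same genes nTKO 2 minus nDKO 1, whose sign follows from the choice of members, gave -5.75, -6.13 and -6.42. With the replicate block the difference was -0.50, -0.01 and -0.80. Replicate numbers are shared by 2 pairs of mice with separate animal numbers, whose deviations correlated at 0.38 and 0.31 across probe sets, and are not taken as a pairing. Krt13 was -0.0083 after median centring and -0.33 and -0.17 by its other probe sets, Krt6b 0.092 with array weights, and Krt1 -0.21 without both nDKO 1 and nTKO 1. With 1 mouse left out, Krt1 ran from -2.05 to 2.90, Krt10 from -1.99 to 4.15, Krt13 from -2.03 to 2.20, Krt4 from -1.02 to 0.13, Krt6a from -1.38 to 0.33, Krt6b from -2.29 to 0.91 and Krt16 from -1.07 to 0.46. The median of the regulators ran from -0.38 to 0.17. The cause of these changes was not tested beyond which mice were used. Ranges over the arrays moved by less than 1 SD of the mice under either scaling. The number of arrays limits the precision.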
